A study of Mus musculus with 24 samples.

Results

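Transcripts of 40 genes of DNA replication, chosen by symbol, were followed in organoids of the mouse pancreas. Of the 40 genes, 36 had an entry of their own and a count above 0 in all 24 libraries, and they are 36 of the 11438 genes tested. The other 4 genes, Gins2, Rfc4, Pold2 and Lig1, were counted only in entries shared with another gene, and their own level cannot be read. The genes were grouped by role as the MCM helicase core, origin recognition and licensing, helicase activation, the sliding clamp and its loader, the single-strand binding protein RPA, polymerases and primase, lagging-strand processing, and chromatin assembly at the fork.

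The series measured polysome-associated mRNA and total mRNA in N organoids, grown from the pancreas of wild-type C57Bl/6J mice, and in KP organoids, grown from pancreatic tumours of mice with Pdx1-Cre and Trp53+/LSL-R172H, a genotype that is not given in full here. In these mice Cre is driven by the Pdx1 promoter, so that mutant Trp53 is switched on in cells of the pancreatic lineage. Both types were kept in medium without epidermal growth factor and N-acetylcysteine, and were given vehicle or 10 nM of CR-31 (CR-1-31-b), a rocaglate inhibitor of the RNA helicase eIF4A, for 1 h. There were 3 replicates in each of the 4 conditions, and every lysate was split into a library of polysome-associated mRNA, pooled from fractions with 3 or more ribosomes, and a library of total mRNA. Nothing in the labels says that replicates were separate cultures, so the p-values measure the spread between these lysates, which may be technical.

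Library totals ran from 47308461 to 267463046 counts. No sequencing lane held both N and KP libraries, so that the lane and the organoid type cannot be told apart. The labelled ductal character was seen in the counts, since 10 of 10 duct markers, among them Krt19, Epcam and Sox9, were counted in every library. Their summed level in total mRNA was 10948 to 16344 CPM (counts scaled to the library size) in N and 6682.9 to 11415 CPM in KP organoids. Markers of acinar, endocrine and endothelial cells summed to at most 7.06, 0.38 and 0.73 CPM in any library. Immune markers differed between the types in total mRNA, at 16.4 to 34.4 CPM in N and 3.7 to 6 CPM in KP, and spread widely in polysome-associated mRNA, at 17.5 to 30.6 CPM in N and 3.84 to 53.7 CPM in KP, where Lyz2 reached 25.2 CPM. Fibroblast markers were at 0.486 to 2.32 CPM in N and 0.142 to 0.32 CPM in KP total mRNA, and at 0.607 to 1.61 and 0.0771 to 0.293 CPM in polysome-associated mRNA. The part of these cells in the comparison of KP with N was not tested.

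DNA replication starts at origins that the origin recognition complex marks. Cdc6 and Cdt1 load the Mcm2-7 helicase there in G1 phase, and geminin, the product of Gmnn, blocks reloading by binding Cdt1. In S phase, Cdc45 and the GINS complex join Mcm2-7 to make the active CMG helicase. Polymerase alpha with primase then starts each strand, replication factor C loads the Pcna clamp, and polymerases delta and epsilon extend the DNA. Many of these genes are transcribed late in G1 phase by E2F transcription factors, which are released when cyclin-dependent kinases phosphorylate the RB protein, and they are commonly used as marks of proliferating cells.

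Because E2F sites are the best known common feature of these promoters, RefSeq windows of 300 bases (250 before and 50 after the start, assembly GRCm38.p6) were searched for an E2F octamer. The octamers were TTTCCCGC, TTTCGCGC, TTTGCCGC and TTTGGCGC on both strands, where a word may overlap another on the opposite strand. A window was found for 32 of the 40 genes. An octamer was present in 14 of these 32 genes (43.8%), against 4.75% of the 8848 tested genes with a window and 2.6% of all 27025 genes with a RefSeq window. When the 250 bases before the start alone were searched, 9 of 32 held one (28.1%), against 4% of tested genes. The sites below are shown because they let the shared word be compared across roles. Each is written 5′ to 3′ on the strand that reads as the octamer, with the octamer nearest to the start in capitals.

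Mcm3 (chr1:20820275-20820304, plus strand): acttcccaagtTTTCCCGCcacggaagttt
Mcm5 (chr8:75109349-75109378, minus strand): aggctggacgtTTTGGCGCgaaagttcttg
Mcm6 (chr1:128359734-128359763, minus strand): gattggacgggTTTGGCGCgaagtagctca
Mcm7 (chr5:138171849-138171878, minus strand): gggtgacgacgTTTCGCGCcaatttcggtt
Orc1 (chr4:108579416-108579445, minus strand): aggagaaaactTTTCGCGCcactaaccgaa
Cdc6 (chr11:98908002-98908031, minus strand): accccaggcgaTTTCCCGCtctccaccggc
Cdt1 (chr8:122568036-122568064, plus strand): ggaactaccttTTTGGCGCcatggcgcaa
Gins3 (chr8:95633507-95633536, minus strand): ttcaaactcgcTTTCCCGCgccgcactcgc
Pole2 (chr12:69228162-69228191, plus strand): catgttcgcgaTTTGGCGCcaccgccgacg
Uhrf1 (chr17:56304117-56304146, plus strand): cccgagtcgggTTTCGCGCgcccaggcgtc

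The octamer lay at base -47 from the start in Mcm6 and at base -27 in Orc1, but as far as base -149 in Mcm5 and -185 in Uhrf1. In Mcm3, Mcm7, Cdt1 and Pole2 it lay after the start, at bases 20, 17, 33 and 11. Rfc3, Pola1, Pold1 and Lig1 also held one. The word CCAAT, the core of the site bound by NF-Y, was found on either strand in 22 of 32 windows (68.8%), against 43.3% of tested genes and 41.1% of all genes with a window. The words TTTGAA and TTCGAA of the cell cycle homology region, an element of promoters of mitotic genes, were in 7 of 32 (21.9%), against 16% of tested genes and 21.7% of all genes with a window. The Mcm6 promoter shows how octamers and CCAAT words lie together, and its 120 bases before the start are printed with both in capitals.

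Mcm6 (chr1:128359706-128359825, minus strand): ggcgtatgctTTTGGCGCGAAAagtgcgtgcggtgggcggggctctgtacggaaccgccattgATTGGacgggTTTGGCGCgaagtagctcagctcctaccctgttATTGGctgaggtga

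The first capitals hold 2 octamers that overlap on opposite strands, the later long run is one more octamer, and both ATTGG words are CCAAT on the opposite strand. These matches describe letters in the windows and were not tied to binding or to the levels given next.

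In the comparison of KP with N organoids given vehicle, which asks how the tumour cells differ at baseline, 32 of the 36 genes rose in polysome-associated mRNA and none fell. Across all tested genes 20.9% were called higher in KP by the same rule (edgeR quasi-likelihood test, Benjamini-Hochberg adjusted p under 0.25). In total mRNA 34 of 36 rose and none fell, where 13.1% of all genes were called higher. For polysome-associated mRNA the median log2 fold change of the 36 genes was 1.00, and for total mRNA it was 1.16, against -0.03 in both over all genes tested. Of all genes, 22.2% and 15.4% were called lower in KP. All 32 genes called in polysome-associated mRNA were called in total mRNA as well. In these bulk samples, more replicating cells and more of each mRNA per cell cannot be told apart.

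**Figure D1:**
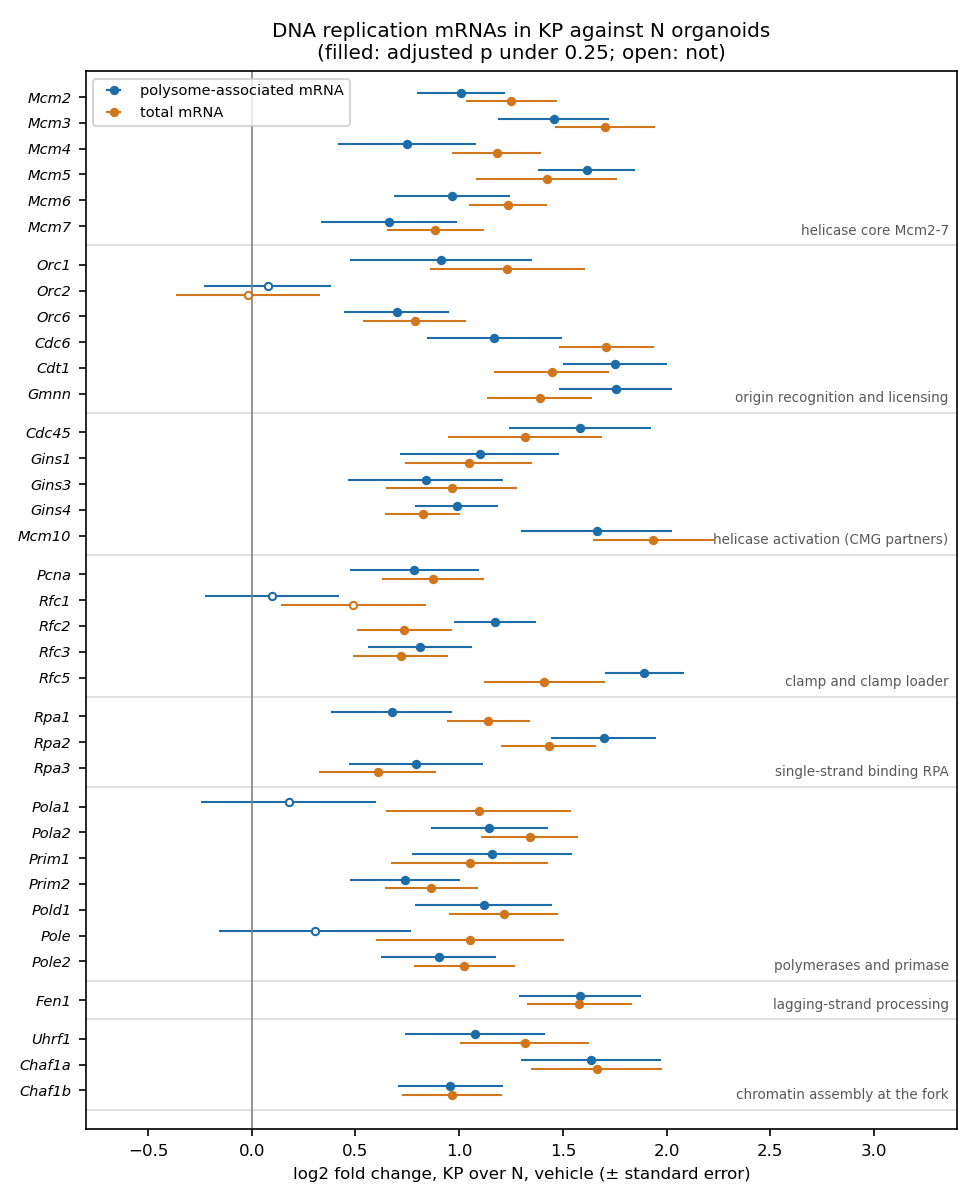
The log2 fold change of KP over N organoids with vehicle is plotted on the x axis for 36 DNA replication genes by role, in polysome-associated (blue) and total mRNA (orange), with standard errors. Of the 72 points, 66 are filled (adjusted p under 0.25) and lie to the right of 0; Orc2, Rfc1, Pola1 and Pole have an open point.

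The 6 subunits of the Mcm2-7 ring, which unwinds DNA at the fork, all rose in both measures. In polysome-associated mRNA, Mcm5 had 39.1, 36.8 and 44.1 CPM in the 3 N lysates and 131, 107 and 129 CPM in the 3 KP lysates. This was a log2 fold change of 1.61 ± 0.23 (SE, adjusted p = 0.00303), and the lowest KP value was far above the highest N value. Mcm3 had 29.1, 24.3 and 30.1 CPM in N against 92.7, 55.1 and 81.4 CPM in KP, a log2 fold change of 1.46 ± 0.27 (adjusted p = 0.00682). Mcm2 had 31.4, 33.9 and 39.3 CPM in N against 70.5, 61.8 and 78.7 CPM in KP, a log2 fold change of 1.01 ± 0.21 (adjusted p = 0.0119). Mcm6 had 58.7, 55.5 and 52.4 CPM in N against 126, 86.0 and 114 CPM in KP, a log2 fold change of 0.96 ± 0.28 (adjusted p = 0.0372). The groups did not overlap for these 4 genes, and KP replicate 2 was the lowest KP lysate for each. Mcm4 (0.75 ± 0.33, adjusted p = 0.142) and Mcm7 (0.66 ± 0.33, adjusted p = 0.185) had the smallest changes of the ring, and for Mcm7 the lowest KP lysate, 105 CPM, lay below the highest N lysate, 117 CPM. In total mRNA, where the 6 log2 fold changes ran from 0.89 to 1.70, Mcm3 had the largest (1.70 ± 0.24, adjusted p = 0.00283) and Mcm7 the smallest (0.89 ± 0.23, adjusted p = 0.0371). Total Mcm2 was 34.3, 31.6 and 28.3 CPM in N and 74.5, 75.5 and 74.3 CPM in KP, so that its KP lysates were nearly equal.

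Among the origin recognition and licensing genes, 5 of 6 rose in both measures. Cdt1, which brings Mcm2-7 to origins, had 25.7, 26.01 and 23.2 CPM in polysome-associated mRNA of N and 86.8, 73.6 and 91.7 CPM in KP organoids. The log2 fold change was 1.75 ± 0.25 (adjusted p = 0.00303). Gmnn, which encodes the inhibitor of Cdt1, moved alike, from 18.1, 17.8 and 13.4 CPM to 75.5, 40.1 and 50.5 CPM (log2 fold change 1.75 ± 0.27, adjusted p = 0.00379). Cdc6, the ATPase that loads the ring together with Cdt1, had 6, 7.51 and 10.2 CPM in N and 19.6, 12.01 and 21.7 CPM in KP (1.17 ± 0.32, adjusted p = 0.0337). In total mRNA Cdc6 had the smallest p of the 36 genes, with 5.73, 7.18 and 6.14 CPM in N and 21.7, 16.2 and 24.4 CPM in KP (1.71 ± 0.23, adjusted p = 0.00228). The groups did not overlap for Cdt1, Gmnn or Cdc6 in either measure.

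The subunits of the origin recognition complex differed among themselves. Orc1, the subunit that comes and goes with the cell cycle, had 3.44, 3.30 and 2.31 CPM in N and 6.40, 2.97 and 7.68 CPM in KP polysomes (0.91 ± 0.44, adjusted p = 0.171). KP replicate 2 lay within the N values, and the call was lost in 7 of 24 alternative analyses, all of which left out a lysate or a replicate. Orc6 rose by 0.70 ± 0.25 in polysome-associated mRNA (adjusted p = 0.0787). Orc2, a core subunit, had 71.2, 33.2 and 40.3 CPM in N and 56.0, 53.6 and 43.02 CPM in KP polysomes, and its log2 fold changes were 0.08 ± 0.31 in polysome-associated (adjusted p = 0.889) and -0.02 ± 0.35 in total mRNA (adjusted p = 0.982). Here the KP values lay inside the range of the N values.

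All 5 tested partners of the helicase rose in both measures. Mcm10, which is needed to activate the CMG helicase, had 5.51, 4.74 and 3.69 CPM in N and 17.8, 9.54 and 16.8 CPM in KP polysomes (1.66 ± 0.36, adjusted p = 0.0138). Its total mRNA had the largest log2 fold change of the 36 genes, 1.94 ± 0.29 (adjusted p = 0.0039), from 5.87, 4.65 and 3.89 CPM to 21.2, 14.7 and 19.2 CPM. Cdc45, a part of the CMG helicase, had 9.36, 6.61 and 6.65 CPM in N and 27.5, 15.03 and 25.2 CPM in KP polysomes (1.58 ± 0.34, adjusted p = 0.0134). Of the GINS subunits, Gins4 had 33.9, 30.6 and 24.7 CPM in N and 62.2, 54.4 and 60.5 CPM in KP polysomes, while Gins1 had 8.66, 5.73 and 5.16 CPM against 20.5, 8.01 and 13.4 CPM. Gins4 rose by 0.99 ± 0.20 (adjusted p = 0.0105), Gins1 by 1.10 ± 0.38 (adjusted p = 0.0706) and Gins3 by 0.84 ± 0.37 (adjusted p = 0.142). The lowest KP lysate of Gins1, 8.01 CPM, was under the highest N lysate, 8.66 CPM, and this call was lost without KP replicate 1. Gins3 overlapped as well, while Gins4 did not.

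**Figure D2:**
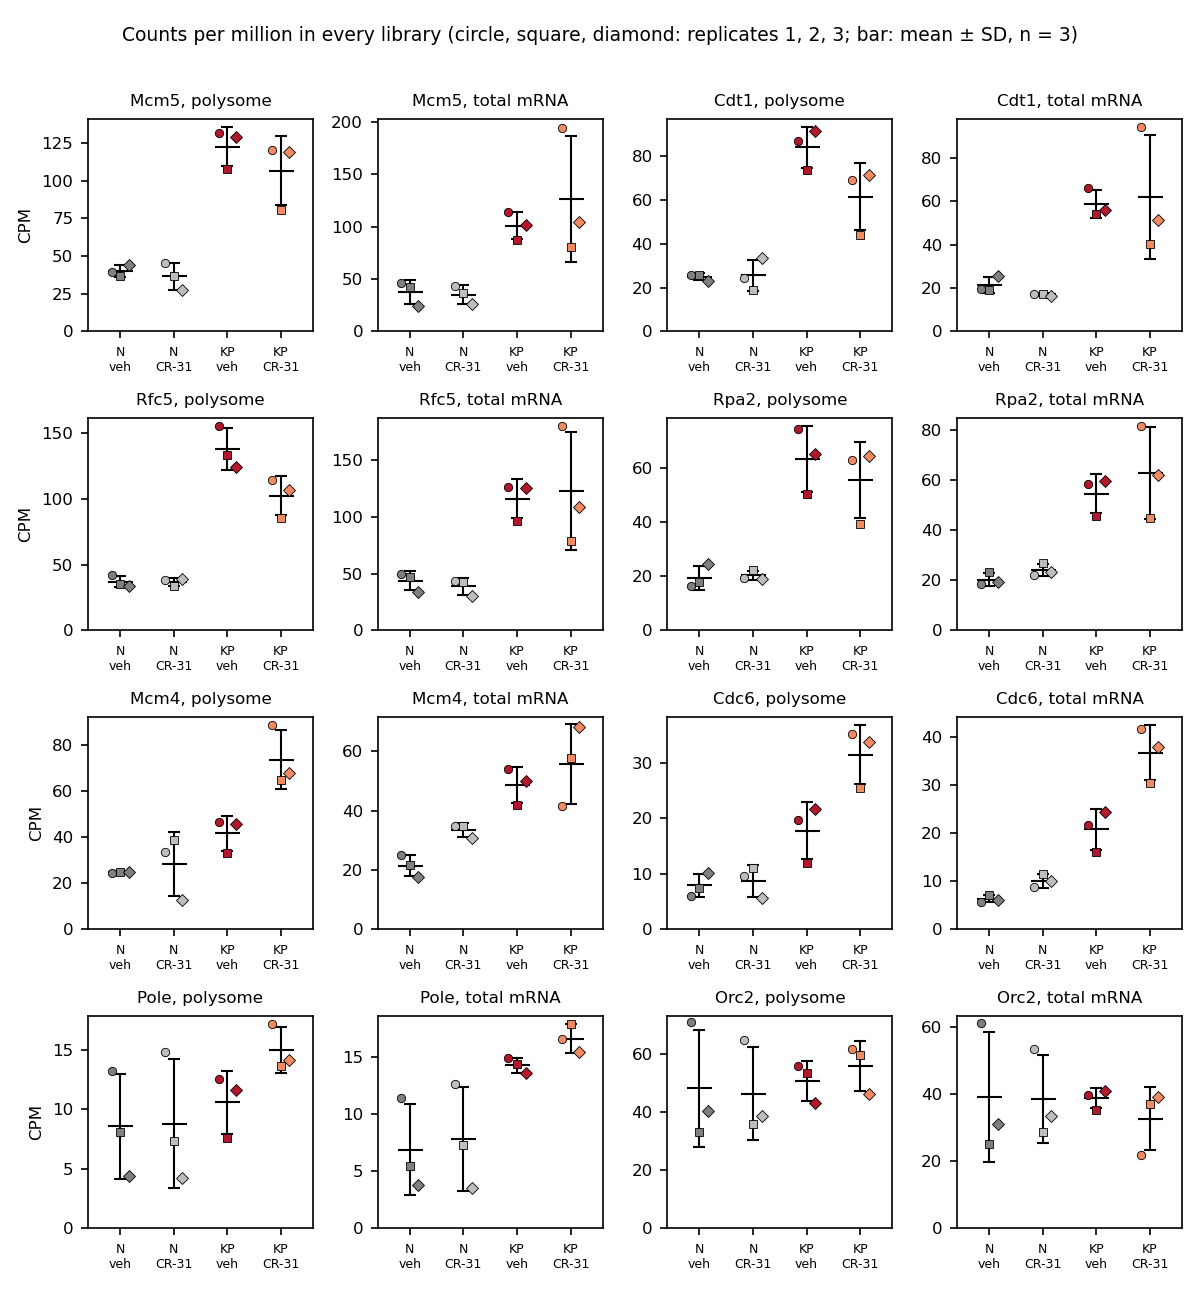
CPM on the y axis (linear, from 0) of 8 genes are plotted for every library in the 4 conditions on the x axis, with the mean and SD of the 3 replicates. Mcm5, Cdt1, Rfc5 and Rpa2 are higher in every KP library than in every N library of the same measure, while Orc2 overlaps; Cdc6 is higher with CR-31 than with vehicle in KP replicates 1, 2 and 3.

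Of the clamp and the clamp loader, Rfc5, a small subunit of the loader, had the largest polysome-associated change of the 36 genes. It had 41.8, 35.5 and 33.9 CPM in N and 155, 133 and 124 CPM in KP organoids (log2 fold change 1.89 ± 0.19, adjusted p = 0.000513). Rfc2, another small subunit, had 61.1, 63.8 and 58.4 CPM in N and 158, 113 and 143 CPM in KP (1.17 ± 0.20, adjusted p = 0.00534). In total mRNA the same genes differed by 1.41 ± 0.29 for Rfc5 and by 0.74 ± 0.23 for Rfc2. Rfc3 had 13.4, 15.9 and 21.9 CPM in N and 32.7, 25.4 and 31.9 CPM in KP polysomes, without overlap (0.81 ± 0.25, adjusted p = 0.0467). Rfc1, the large subunit, did not pass in either measure, with log2 fold changes of 0.10 ± 0.32 and 0.49 ± 0.35 (adjusted p = 0.87 and 0.423). Pcna, the clamp itself, had 175, 114 and 265 CPM in N and 388, 262 and 305 CPM in KP polysomes (0.78 ± 0.31, adjusted p = 0.104). Its lowest KP lysate lay just under its highest N lysate, so that the groups overlapped, and the call was lost without N vehicle replicate 2 and without KP vehicle replicate 1. In total mRNA the Pcna groups did not overlap, with 212, 187 and 135 CPM in N and 363, 274 and 340 CPM in KP (0.87 ± 0.24, adjusted p = 0.0469).

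The 3 subunits of RPA, which coats single-stranded DNA, all rose. Rpa2 had 16.3, 17.8 and 24.6 CPM in N and 74.5, 50.2 and 65.3 CPM in KP polysomes, and its groups did not overlap (1.70 ± 0.25, adjusted p = 0.00344). Rpa1 had 34.4, 37.9 and 45.7 CPM in N and 75.0, 45.6 and 67.7 CPM in KP polysomes, where KP replicate 2 fell within the N values, but 37.3, 39.5 and 25.5 CPM against 81.2, 71.5 and 72.7 CPM in total mRNA. It rose by 0.67 ± 0.29 in polysome-associated (adjusted p = 0.131) and by 1.14 ± 0.20 in total mRNA (adjusted p = 0.00739). The polysome-associated call of Rpa1 was lost in 8 of 24 alternatives, all of which left out a lysate or a replicate. Rpa3 had 18.1, 15.6 and 21.9 CPM in N and 46.2, 22.4 and 27.5 CPM in KP polysomes. It rose by 0.79 ± 0.32 (adjusted p = 0.114), and in total mRNA by 0.61 ± 0.28 (adjusted p = 0.212). Its call in total mRNA was lost in 11 of 24 alternatives, upper-quartile scaling among them, with adjusted p up to 0.52. It was also lost in polysome-associated mRNA without N vehicle replicate 2 and without KP vehicle replicate 1.

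Of the 7 tested genes of polymerases and primase, 5 rose in polysome-associated and 7 in total mRNA. Pola2, the second subunit of polymerase alpha, had 11.3, 12.8 and 18.8 CPM in N and 34.5, 26.9 and 33.4 CPM in KP polysomes (1.15 ± 0.28, adjusted p = 0.022). Pold1, the catalytic subunit of polymerase delta, had 10.6, 13.3 and 26.9 CPM in N and 33.2, 35.4 and 41.6 CPM in KP (1.12 ± 0.33, adjusted p = 0.0405). Pole2, the second subunit of polymerase epsilon, had 6.53, 6.30 and 10.8 CPM in N and 16.98, 12.7 and 14.4 CPM in KP polysomes (0.90 ± 0.28, adjusted p = 0.0464). Every KP lysate of these 3 genes lay above every N lysate. In polysome-associated mRNA, the primase subunits Prim1 and Prim2 rose by 1.16 ± 0.39 (adjusted p = 0.0613) and 0.74 ± 0.27 (adjusted p = 0.0769). For Prim1 the lowest KP lysate lay under the highest N lysate in both measures, at 20.4 against 20.7 CPM in polysome-associated and 24.3 against 26.4 CPM in total mRNA. Prim2, with 12.6, 9.35 and 14.1 CPM in N and 24.1, 16.8 and 19.3 CPM in KP polysomes, lost its call without KP vehicle replicate 1 and without N replicate 2. The catalytic subunits of polymerases alpha and epsilon were the exceptions. Pole had 13.2, 8.06 and 4.44 CPM in N and 12.6, 7.60 and 11.6 CPM in KP polysomes, which overlap (0.31 ± 0.46, adjusted p = 0.688). In total mRNA it had 11.4, 5.48 and 3.84 CPM in N and 14.9, 14.5 and 13.6 CPM in KP (1.05 ± 0.45, adjusted p = 0.176), so the KP lysates were alike, the N lysates spread widely, and the groups did not overlap. Pola1 gave 0.18 ± 0.42 in polysome-associated (adjusted p = 0.809) and 1.09 ± 0.45 in total mRNA (adjusted p = 0.154).

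Fen1, the nuclease that trims Okazaki fragments, had 18.1, 15.7 and 15.5 CPM in N and 57.3, 34.7 and 55.6 CPM in KP polysomes, which do not overlap. It rose by 1.58 ± 0.29 in polysome-associated (adjusted p = 0.00703) and 1.58 ± 0.25 in total mRNA (adjusted p = 0.0048). Chaf1a, the large subunit of the histone chaperone CAF-1, had 19.6, 18.7 and 10.3 CPM in N and 61.4, 34.6 and 54.9 CPM in KP polysomes. It rose by 1.64 ± 0.34 (adjusted p = 0.0108) and 1.66 ± 0.32 (adjusted p = 0.0105). Chaf1b, its second subunit, had 25.4, 19.6 and 27.7 CPM in N and 52.1, 43.4 and 45.7 CPM in KP polysomes, and rose by 0.96 ± 0.25 and 0.96 ± 0.24 (adjusted p = 0.028 and 0.0313). Uhrf1, which directs DNA methylation to newly copied DNA, had 35.4, 28.01 and 26.3 CPM in N and 66.8, 42.8 and 79.4 CPM in KP polysomes. It rose by 1.07 ± 0.34 and 1.31 ± 0.31 (adjusted p = 0.0503 and 0.0242). None of these 4 genes overlapped between the types.

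In vehicle-treated lysates, every KP library lay above every N library for 25 of the 36 genes in polysome-associated mRNA and for 31 of 36 in total mRNA. Over all genes tested this held for 18% and 15.9%. The median level of the 36 genes in each library, as log2 CPM less the mean of vehicle-treated N, was 1.17, 0.635 and 1.13 in the 3 KP vehicle lysates and 0.0559, -0.0666 and -0.0267 in the 3 N vehicle lysates for polysome-associated mRNA. KP replicate 2 was the lowest KP lysate with vehicle and with CR-31 in both measures, and N replicate 3 with CR-31 was the lowest N library of polysome-associated mRNA. The median of all genes ran only from -0.0514 to 0.0335 over the 24 libraries.

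**Figure D3:**
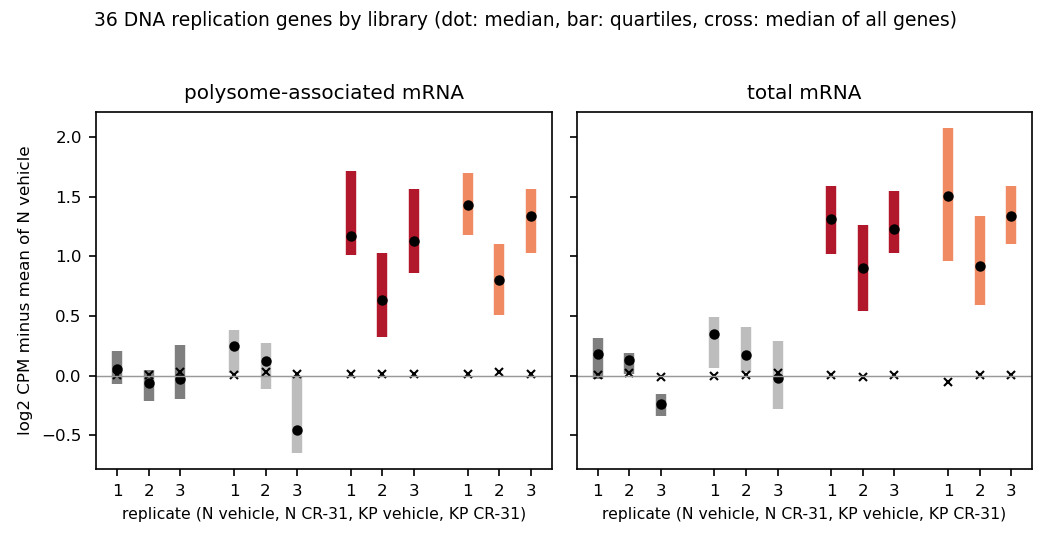
Each bar spans the quartiles of log2 CPM less the mean of vehicle-treated N (y axis) over 36 DNA replication genes in 1 library, with the replicate number on the x axis, grouped by condition. Medians of the 12 KP libraries (dots, 0.635 to 1.51) lie above those of the 12 N libraries (-0.459 to 0.351), while the median of all genes (crosses) stays near 0.

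With CR-31 in both types, KP organoids again had 32 of 36 genes higher and none lower in polysome-associated mRNA, against 11.2% of all genes called higher, and 32 of 36 in total mRNA, against 18.9%. The genes not called were Orc2, Rfc1, Rpa3 and Pole in polysome-associated mRNA, and Orc2, Orc6, Rfc1 and Pola1 in total mRNA. The median log2 fold changes were 1.27 and 1.10. Pola1 in polysome-associated mRNA was called here, at 0.91 ± 0.43 (adjusted p = 0.228).

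Per length of transcript, levels within the list spanned a wide range. In total mRNA of vehicle-treated N organoids, the mean RPKM (reads per kilobase of transcript, scaled to the library's mapped reads) was 126 ± 35.3 (SD, n = 3) for Pcna, the highest, and 0.455 ± 0.245 for Pola1, the lowest. Mcm7 was next to Pcna with 37 ± 4.95 RPKM and did not overlap it, whereas Mcm7, Rfc2 (31.8 ± 4.71) and Rpa3 (30.8 ± 3.64) overlapped each other. From the second to the last place the replicates of neighbours overlapped, except between Pold1 (3.07 ± 0.177) and Gins3 (1.29 ± 0.232). In KP organoids Pcna, at 235 ± 39.6 RPKM, and Mcm7, at 70.2 ± 14.7 RPKM, again had the highest means. Pcna did not overlap the rest, whereas Mcm7 overlapped Rfc5 (61.1 ± 10.5 RPKM), and Rfc5 overlapped Rfc2.

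The 4 genes in shared entries are given only as those entries. The entry of Lig1 and 6330408A02Rik had 24.8 ± 5.17 CPM in N and 60.0 ± 11 CPM in KP total mRNA (SD, n = 3, vehicle). The entry of Pold2 and Aebp1 had 52.8 ± 3.87 and 92.7 ± 11.5 CPM, that of Gins2 and Gse1 had 69.2 ± 10.2 and 91.0 ± 8.63 CPM, and that of Rfc4 and Eif4a2 had 249 ± 84.3 and 152 ± 40.6 CPM. Which gene of a pair gave the counts cannot be read from them.

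Other genes of the process were read beside these. Of 38 further replication factors, 31 were tested, of which 21 rose and 1 fell in polysome-associated mRNA of KP against N with vehicle, while 22 rose and none fell in total mRNA. Over all genes 20.9% rose and 22.2% fell in the first, and 13.1% rose and 15.4% fell in the second. Asf1b, a histone chaperone, rose by 1.92 ± 0.34 in polysome-associated mRNA (adjusted p = 0.00628), Dna2, a nuclease-helicase, by 1.88 ± 0.34 (adjusted p = 0.00693) and Timeless, of the fork protection complex, by 1.47 ± 0.31 (adjusted p = 0.0128). The gene that fell was Top1, topoisomerase I, by 0.47 on the log2 scale (SE 0.27, adjusted p = 0.247). In total mRNA the smallest p values were those of Timeless (2.07 ± 0.25, adjusted p = 0.00134), Dnmt1, the maintenance DNA methyltransferase (1.51 ± 0.25, adjusted p = 0.00506) and Dna2 (2.14 ± 0.36, adjusted p = 0.00562).

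Of the 17 genes of the E2F and RB family, 15 were tested, and 9 rose in polysome-associated and 8 in total mRNA, against 20.9% and 13.1% of all genes, with none lower. E2f2, an activator E2F, had the largest change, 3.47 ± 0.35 in polysome-associated (adjusted p = 0.000513) and 3.34 ± 0.42 in total mRNA (adjusted p = 0.00149). E2f1, another activator, rose by 1.17 ± 0.27 and 0.65 ± 0.20 (adjusted p = 0.016 and 0.058). E2f8, a repressor E2F, rose by 1.62 ± 0.37 and 1.67 ± 0.32 (adjusted p = 0.0162 and 0.0108). Of 18 markers of mitosis, 16 were tested, and 12 rose in polysome-associated and 16 in total mRNA, beside the same shares of all genes. Their median log2 fold changes, 1.64 and 1.63, lay above those of the 36 replication genes, though no test compared the lists. Aurkb, a mitotic kinase, rose by 1.96 ± 0.31 in polysome-associated mRNA (adjusted p = 0.00379), Cenpa, the centromeric histone, by 1.71 ± 0.30 (adjusted p = 0.00581), and Cdk1 by 1.73 ± 0.32 (adjusted p = 0.00668). Among the 10 duct markers, 1 rose and 5 fell in polysome-associated mRNA and 5 fell in total mRNA (22.2% and 15.4% of all genes fell), and their part in the results above was not tested.

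For CR-31, the level of each mRNA on polysomes relative to the other genes was compared after 1 h of eIF4A inhibition. Counts were scaled within the polysome-associated libraries, so a change shared by all mRNAs cannot be seen here. Changes of total mRNA are part of these values and are given further below. Cdc6, Mcm4 and Mcm7 had the largest increases in KP polysomes and Cdt1, Rfc5 and Rfc2 the largest decreases, but by the unpaired edgeR test none of the 36 genes passed in KP or in N, and neither did any of the 11438 genes (0% in both). At an unadjusted p under 0.05 there were 3 of 36 in KP (406 of all genes) and 1 of 36 in N (48 of all genes), and DESeq2 called 0 genes in either. The median log2 fold change of the 36 genes was 0.14 in KP and -0.05 in N, against -0.02 and 0.00 over all genes.

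Cdc6 in KP polysomes was 19.6, 12.01 and 21.7 CPM with vehicle and 35.2, 25.4 and 33.7 CPM with CR-31 in replicates 1, 2 and 3, so that every CR-31 lysate lay above every vehicle lysate (0.82 ± 0.32, adjusted p = 1 by edgeR). Mcm4 went from 46.5, 33.05 and 45.9 CPM to 88.5, 64.6 and 67.9 CPM (0.82 ± 0.33, adjusted p = 1 by edgeR), again without overlap. Mcm7 went from 162, 105 and 197 CPM to 272, 186 and 281 CPM, which overlap. In the other direction, Cdt1 went from 86.8, 73.6 and 91.7 CPM to 68.9, 43.8 and 71.6 CPM, and Rfc5 from 155, 133 and 124 CPM to 114, 85.6 and 106 CPM (-0.43 ± 0.18, adjusted p = 1 by edgeR). For Cdt1 and Rfc5 every CR-31 lysate lay below every vehicle lysate.

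Vehicle and CR-31 lysates with the same replicate number deviated together, so the ratios were also read within a number. In KP polysomes 20 of the 36 genes were higher with CR-31 in 3 of 3 pairs (55.6%, against 28.9% of all genes) and 7 were lower in 3 of 3 (19.4%, against 30.6%). In an edgeR fit that took the replicate number of each type as a block, 8 of the 36 genes were called, against 19.3% of all genes, a share close to the background. The 5 that rose were Cdc6 (0.85 ± 0.26, adjusted p = 0.192), Mcm4 (0.82 ± 0.27, adjusted p = 0.193), Mcm7 (0.69 ± 0.28, adjusted p = 0.223), Pole (0.52 ± 0.16, adjusted p = 0.192) and Uhrf1 (0.47 ± 0.19, adjusted p = 0.225). The 3 that fell were Rfc5 (-0.44 ± 0.14, adjusted p = 0.193), Cdt1 (-0.48 ± 0.19, adjusted p = 0.219) and Rfc2 (-0.32 ± 0.13, adjusted p = 0.239). When any KP replicate was left out of that fit, none of the 36 was called, and of all genes 1, 0 and 0 were called without replicates 1, 2 and 3, while the adjusted p of these 8 lay between 0.268 and 0.847. The lysates of KP fall on 2 lanes, and the log2 ratio within each lane kept its sign for these 8 genes, from 0.43 and 1.20 for Cdc6 and -0.71 and -0.21 for Cdt1 to 0.04 and 0.76 for Uhrf1. These 8 genes were picked by their calls in the same libraries, so the kept sign is no separate support. Others of the 36 genes, Mcm3 and Cdc45 among them, changed sign between the lanes. The vehicle and CR-31 lysates of KP replicate 2, the lowest KP replicate, were on different lanes, so the ratios within a lane mix that replicate's level with the treatment.

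**Figure D4:**
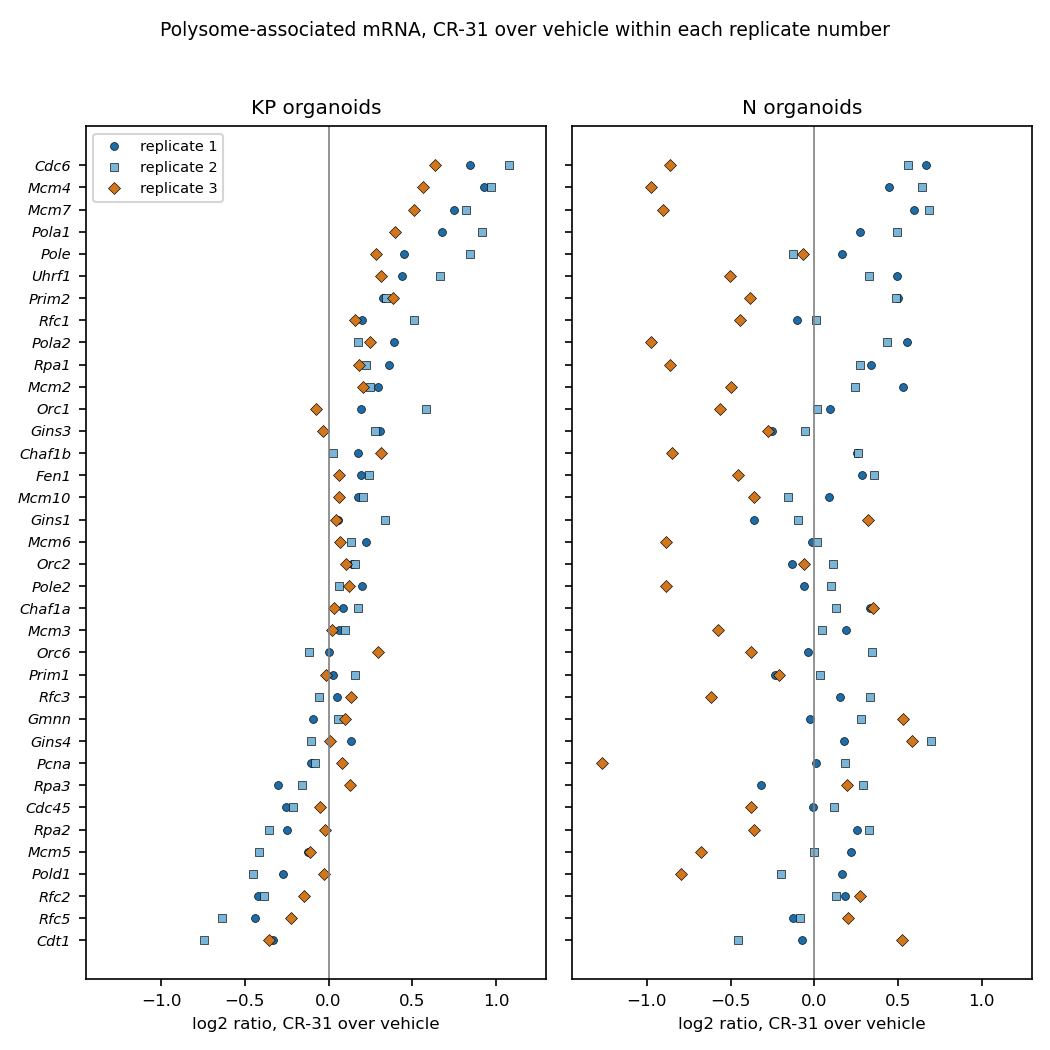
The log2 ratio of CR-31 over vehicle in polysome-associated mRNA (x axis) is plotted within each replicate number for 36 DNA replication genes, ordered by the KP mean. In KP organoids 20 genes have all 3 symbols above 0 and 7 have all 3 below, from Cdc6 (0.64 to 1.08) at the top to Cdt1 (-0.75 to -0.33) at the bottom; in N organoids replicate 3 (diamonds) often lies apart from replicates 1 and 2.

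In N polysomes the pairs went different ways. Mcm4 gave log2 ratios of 0.45, 0.64 and -0.98, Mcm7 of 0.59, 0.69 and -0.91, and Cdc6 of 0.67, 0.56 and -0.86 in replicates 1, 2 and 3. Replicates 1 and 2 were thus of the same sign as in KP, and replicate 3 was opposite. Over the 36 genes the median ratio was 0.16, 0.16 and -0.45, and 3 genes were higher in 3 of 3 pairs (8.33%, against 9.24% of all genes) and 1 was lower (2.78%, against 11.4%). Gins4 was one of these (0.49 ± 0.20, adjusted p = 1 by edgeR). Pcna had log2 ratios of 0.01, 0.18 and -1.27, and its fitted change of -0.41 ± 0.31 became 0.09 without N replicate 3. With the block no gene was called in N polysomes. The difference of the CR-31 effect between KP and N was called for 0 of 36 genes (0% of all genes), with 0 of 36 at an unadjusted p under 0.05 (258 of all genes) and 0 by DESeq2. For Cdc6 this difference was 0.68 ± 0.45 and for Cdt1 -0.48 ± 0.35.

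In total mRNA, CR-31 again called 0 of 36 genes in KP and in N (0% of all genes in both), with 2 and 3 of 36 at an unadjusted p under 0.05 (109 and 297 of all genes). DESeq2 called none of the 36, and 8 and 13 of all genes. In 3 of 3 pairs, 9 of the 36 genes were higher in KP total mRNA (25%, against 15.6% of all genes) and 14 in N total mRNA (38.9%, against 20.7%). Lower in 3 of 3 pairs were 2 genes in KP (5.56%, against 11.6% of all genes) and 4 in N (11.1%, against 23% of all genes). Cdc6 was among the higher genes in both types, without a call. Its log2 ratios were 0.94, 0.92 and 0.63 in KP and 0.61, 0.68 and 0.70 in N, with fitted changes of 0.82 ± 0.22 (adjusted p = 1 by edgeR) and 0.67 ± 0.23 (adjusted p = 1 by edgeR). Mcm7 was higher in 3 of 3 pairs of both types as well, with 0.99, 0.59 and 0.47 in KP and 0.48, 0.47 and 0.20 in N. Cdt1, in contrast, gave 0.51, -0.42 and -0.12 in KP and -0.19, -0.13 and -0.66 in N total mRNA. Mcm4 gave -0.38, 0.46 and 0.44 in KP and 0.48, 0.69 and 0.79 in N. KP replicate 1 with CR-31 stood apart in total mRNA, with Cdt1 at 94.2 CPM against 40.2 and 51.4 CPM and Rfc5 at 180 CPM against 79.04 and 109 CPM in replicates 2 and 3.

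Translational efficiency, the change of polysome-associated mRNA relative to total mRNA of the same lysate, was called for 0 of 36 genes between KP and N with vehicle (0% of all genes), with 2 of 36 at an unadjusted p under 0.05 (1296 of all genes). On simulated counts this test recovered 0% of 2-fold and 7.58% of 3-fold changes, so 0 calls do not show an absence of change. The median log2 difference of the 36 genes between KP and N was -0.09 (12 of 36 above 0), against 0.00 over all genes. A regression that predicts the polysome-associated level from total mRNA gave 0.20 (25 of 36 above 0), so that the sign depended on the method. This regression resembles the study's method but lacks its limits on slope and size of change. It subtracts the total mRNA change times a fitted slope, so with a slope under 1 part of that change stays in the value. The 2 medians are therefore not like measures. Pole had the smallest p, at -0.83 ± 0.25 (adjusted p = 0.433 by edgeR), and Cdc6 was next at -0.58 ± 0.27 (adjusted p = 0.437 by edgeR). Pola1 was at -1.04 ± 0.55. At the other end were Rfc5 (0.43 ± 0.25), Rfc2 (0.38 ± 0.20), Gmnn (0.30 ± 0.24) and Cdt1 (0.25 ± 0.28), each with an adjusted p above 0.4. DESeq2 called 1 of the 36, which was lower, and 3.27% of all genes. Without N replicate 3 edgeR called 12 of the 36, against 35.8% of all genes. The regression called 3 higher, against 10.5% of all genes called in either direction, a share close to the background. They were Rfc5 (1.49 ± 0.34, adjusted p = 0.16), Mcm5 (1.10 ± 0.37, adjusted p = 0.216) and Rfc2 (0.78 ± 0.29, adjusted p = 0.236). For the CR-31 effect, translational efficiency was called for 0 of 36 in KP, 0 of 36 in N and 0 of 36 in their difference (0% of all genes each). At an unadjusted p under 0.05 there were 0, 0 and 1 of 36 (627, 328 and 1227 of all genes), the last being Mcm4 (1.33 ± 0.51, adjusted p = 0.419 by edgeR). DESeq2 called none of the 36 in these 3 comparisons, and 0, 0 and 290 of all genes, though in the last it gave 9757 genes no adjusted p.

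Within a type, the polysome-associated level set against total mRNA describes how much of each mRNA is found on polysomes relative to the other genes. In N organoids with vehicle, 2 of 36 were higher and 1 lower, where 15.2% of all genes were called in either direction. They were Rfc1 (1.10 ± 0.24, adjusted p = 0.0224), Pola1 (1.60 ± 0.40, adjusted p = 0.0429) and Prim1 (-0.35 ± 0.15, adjusted p = 0.241). In KP organoids 3 were higher and 6 lower, where 27.5% of all genes were called. Rfc2 (0.50 ± 0.14, adjusted p = 0.0842), Rfc1 (0.61 ± 0.23, adjusted p = 0.146) and Cdt1 (0.42 ± 0.20, adjusted p = 0.213) were higher. Pole (-0.56 ± 0.18, adjusted p = 0.0968), Mcm10 (-0.45 ± 0.16, adjusted p = 0.12), Pole2 (-0.44 ± 0.20, adjusted p = 0.206), Mcm7 (-0.38 ± 0.17, adjusted p = 0.206), Prim2 (-0.30 ± 0.15, adjusted p = 0.243) and Prim1 (-0.29 ± 0.15, adjusted p = 0.25) were lower. Pole was at 0.28 ± 0.18 in N and did not pass there. These counts moved with those of all genes when lysates were left out. The KP count was 0 without KP vehicle replicate 1 or 2 (0.481% and 0.525% of all genes), 1 without KP vehicle replicate 3 (6.08%) and 24 without N replicate 3 (47.8%). The N count was 0 without N vehicle replicate 2 (1.75%) and 16 without N replicate 3 (35.7%).

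**Figure D5:**
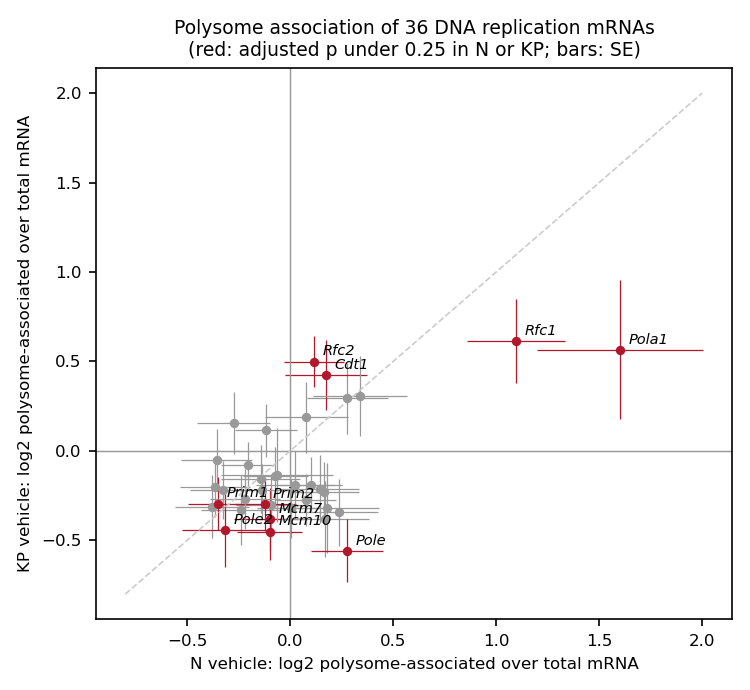
The log2 level of polysome-associated over total mRNA in vehicle-treated N organoids (x axis) is set against that in vehicle-treated KP organoids (y axis) for 36 genes, with standard errors, a dashed line of equal values, and red for genes called in N or KP. Rfc1 (1.10 and 0.61) and Pola1 (1.60 and 0.56) lie far to the right, and Pole (0.28 and -0.56) lies to the lower right of the line.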

How the data were processed

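Polysome-associated and total mRNA of 24 libraries were analysed from 1 table of the whole series. Per the labels and the study's methods, the authors aligned paired-end reads with HISAT2, kept uniquely mapped reads, and deposited, for each RefSeq coding gene, raw counts and RPKM values computed from them with the RPKMforgenes script. The sources name a human build although the genes are mouse, so no coordinate was taken from the table. A further allele of the KP mice is not reported here. Entries that join several symbols were left out, since their counts cannot be divided.

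Counts were analysed with edgeR 4.0.16 (TMM scaling, quasi-likelihood test, limma 3.58.1, R 4.3.3) over 11438 genes, each counted at least once per library. The 4 conditions were fitted together, separately for polysome-associated and total mRNA, and translational efficiency in 1 model of all libraries with the lysate as a block. P-values were adjusted by Benjamini-Hochberg over all genes, at the study's threshold of 0.25. CPM values use the TMM library sizes, and RPKM values served only to compare levels between genes. Library totals were 47308461 to 267463046 counts for polysome-associated and 72077342 to 167384903 for total mRNA.

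The members and lists were chosen with earlier results of these data known. Values per library are given for up to 4 called genes of each role, for the 5 genes with the smallest p under CR-31 in each type, and for Mcm2, Cdc6, Cdt1, Pcna and Pole, with others by counts or fitted values. For the 5 genes in N, the CR-31 lysates are not printed one by one. Values outside that rule were chosen after they were seen. They include Orc2, Mcm7 and Prim1 in KP against N, and Cdt1 and Rfc5 in total mRNA with CR-31. The CR-31 ratios of Mcm4, Mcm7, Cdc6 and Cdt1 in N or total mRNA are also outside it.

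Whether replicate numbers pair the samples was checked by correlating deviations from group means. Vehicle and CR-31 lysates of the same number gave r of 0.456 to 0.797 in KP and 0.552 to 0.889 in N, above 0.1 in all 12 pairs, whereas N with KP gave -0.167 to 0.277. The numbers were therefore taken to pair vehicle with CR-31 within a type. Alternatives were RLE and upper-quartile scaling, other filters, DESeq2 1.42.0, a regression on total mRNA, the replicate block, a threshold of 0.05, and leaving out each lysate or replicate. Leaving out a replicate from the block fit was added after seeing the data. The scripts were tested on simulated counts with known changes in polysome-associated mRNA of KP. Of 1.5-fold, 2-fold and 3-fold changes, the polysome-associated test recovered 4.48%, 22.4% and 54.5%. The translational efficiency test recovered 0%, 0% and 7.58%, and 44.4% of its 9 calls were false.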

Additional observations from a re-analysis of the deposited data

How the results depend on the processing

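The direction of KP against N with vehicle held for the 27 called genes that were followed under all alternatives run, and the counts of higher genes stayed within 1.5 times the values given, except in polysome-associated mRNA, where 20 genes passed at an adjusted p under 0.05 with vehicle and with CR-31 (917 and 280 of all genes were higher), and 21 passed with CR-31 without KP replicate 1 (377 of all genes). Leaving out lysates or replicates gave 22 to 32 genes with vehicle and 21 to 35 with CR-31 in polysome-associated mRNA (lowest without KP replicate 1), and 29 to 34 and 24 to 32 in total mRNA. Apart from the 377 genes above, the shares of all genes under these settings are not given here. Whether these counts moved with the background cannot be read from them. Upper-quartile scaling moved the median of all genes to -0.13 and that of the 36 genes to 0.91 in KP against N with vehicle, polysome-associated mRNA.

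For KP against N, translational efficiency gave 1 gene with DESeq2, 3 with regression on total mRNA, and 0 to 12 when lysates or replicates were left out (12 without N replicate 3, where 35.8% of all genes were called). The CR-31 effect on it in KP gave 3 with regression and the replicate block (8.33%, against 16.7% of all genes), and its difference between types 0 to 4 (4 without N CR-31 replicate 2, 11.1% against 16.6% of all genes). With the replicate block within the type, CR-31 in KP polysomes gave 8 genes. A block shared between N and KP gave 32 and 35 genes for KP against N with vehicle (polysome-associated and total mRNA), 34 and 33 with CR-31, and 0 for translational efficiency. The share of all genes called under this block is not given here, so whether these counts moved with it cannot be read. Polysome-associated against total mRNA gave 5 genes in N with DESeq2 (13.9%, against 18.6% of all genes) and 0 to 16 when lysates or replicates were left out. In KP it gave 0 at an adjusted p under 0.05 (1.12% of all genes), 4 without the filter (11.1%, against 14.1% of all genes), and 0 to 24 when lysates or replicates were left out.

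In N polysomes with CR-31, Pcna ranged from -0.68 to 0.0892 and Pole2 from -0.51 to 0.0262 (both reversed without N replicate 3), and Pold1 from -0.63 to 0.13 (reversed without N vehicle replicate 3). The cause was not tested.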
